A study of Mus musculus with 6 samples.

Results

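Transcripts of 9 genes of the insulin and insulin-like growth factor (IGF) axis were examined in brain endothelial cells. The genes were the IGF-binding proteins Igfbp3, Igfbp4, Igfbp5 and Igfbp7, the receptors Igf1r, Igf2r and Insr, and the receptor substrates Irs1 and Irs2, out of 54532 genes in the table. They were taken by gene name, and the set was chosen by the difference of Igfbp3 between bezafibrate and untreated libraries. That contrast is therefore given for them as a description, with no test.

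All mice carried Df(h22q11)/+, a heterozygous deletion of the mouse region that corresponds to human 22q11.2. They were 12 to 16 weeks old, and wild-type mice were not analysed here, so that each group shares the deletion. The untreated group had irradiated base chow (libraries F_1, F_2 and M_1). The other group had chow with 0.5% bezafibrate, an agonist of PPAR nuclear receptors, for 4 weeks (libraries F_1, M_1 and M_2). F stands for female pools and M for male pools, and each library held 3 brains of the same sex. Cells had been sorted by FACS as live, positive for CD31 and negative for CD45 and PDGFRb, a gate for endothelium that leaves out leukocytes and pericytes. Library values are listed below in the order F_1, F_2, M_1 for untreated and F_1, M_1, M_2 for bezafibrate.

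Insulin, IGF1 and IGF2 act through receptor tyrosine kinases. The insulin receptor and the IGF1 receptor form homodimers or hybrids, and both phosphorylate the docking proteins IRS1 and IRS2, which recruit PI3-kinase and lead to AKT, mTOR and the exclusion of FoxO factors from the nucleus. IGF-binding proteins are secreted carriers that hold IGFs outside the cell, prolong their life and limit or deliver them to the receptor. Brain endothelium carries insulin and IGF1 receptors that serve signalling and the passage of these hormones from blood to brain.

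The sequence just upstream of the start site was compared among the genes, since the rule that chose them did not use it. RefSeq windows of GRCm38.p6 were found for 8 of the 9 genes, with none for Insr. The 250 bases before the start were searched on both strands for fixed letters. Among the binding-protein genes, Igfbp3 and Igfbp4 each had a TATA-type motif close to the start. Neither window held a GC box (GGGCGG), nor did that of Igfbp5, while Igfbp7 had 4. The windows of Irs1, Irs2, Igf1r and Igf2r held GC boxes as well. The capitals mark TATATA in Igfbp3, 30 bases before the start, and TATAAA in Igfbp4, 28 bases before it. TATAAA occurred in 12.4% and TATATA in 5.25% of all 32851 windows, and the GC box in 32.7%. None of the other 6 windows held either TATA form. The windows lie on chromosome 11, at chr11:7213924-7214173 (minus strand) for Igfbp3 and chr11:99040994-99041243 (plus strand) for Igfbp4.
Igfbp3: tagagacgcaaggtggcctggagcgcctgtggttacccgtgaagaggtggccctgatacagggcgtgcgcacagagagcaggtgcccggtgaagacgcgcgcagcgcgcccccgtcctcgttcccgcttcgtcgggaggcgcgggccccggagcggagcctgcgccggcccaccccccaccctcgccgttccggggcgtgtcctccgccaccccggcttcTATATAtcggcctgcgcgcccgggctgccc
Igfbp4: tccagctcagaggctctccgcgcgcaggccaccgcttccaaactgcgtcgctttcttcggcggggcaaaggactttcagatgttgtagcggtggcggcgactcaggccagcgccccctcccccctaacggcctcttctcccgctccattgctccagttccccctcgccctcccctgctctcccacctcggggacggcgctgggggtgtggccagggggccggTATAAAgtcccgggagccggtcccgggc

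The windows of the substrates Irs1 and Irs2 shared another arrangement. In both, an E-box (CACGTG, in 6.02% of windows) stood beside or overlapping the insulin response element core CAAAACA (in 5.56% of windows), here read on the other strand as TGTTTTG. In Irs1 the motifs share 2 bases, and in Irs2 1 base lies between them. Capitals mark both motifs in 40 bases at chr1:82291532-82291571 for Irs1 and chr8:11008951-11008990 for Irs2, both on the minus strand.
Irs1: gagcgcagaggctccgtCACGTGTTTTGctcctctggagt
Irs2: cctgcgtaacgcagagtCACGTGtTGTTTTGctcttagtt

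A PPAR half-site, AGGTCA, was found in the windows of Igf1r and Igf2r and not in that of Igfbp3. It occurred in 14% of all windows. The full repeat AGGTCANAGGTCA, present in 0.0335% of windows, was in none of the 8. The FoxO core was searched under that name only as GTAAACA, present in 3.17%, and these letters were in none either. Absence of this spelling does not mean that a window lacks every FoxO-type site. The half-sites are shown in capitals in 40 bases at chr7:67952154-67952193 (plus strand, where TGACCT is the half-site on the other strand) and chr17:12769707-12769746 (minus strand). The RefSeq starts of Igf1r, Igf2r, Irs1, Irs2 and Igfbp7 lie outside the gene limits of the expression table. These matches describe letters within a short window and not binding.
Igf1r: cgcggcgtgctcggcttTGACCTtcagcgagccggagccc
Igf2r: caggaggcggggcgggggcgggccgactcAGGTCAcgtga

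The libraries were even in depth, with 16858130 to 20228619 reads each as recovered from the table. FPKM (fragments per kilobase of gene length, scaled to a size per library) reached 1 for 11060 to 11387 genes. The size used for scaling was not the summed reads. Summed reads were 0.888 and 0.897 times that size in bezafibrate M_1 and M_2, and 0.950 to 1.09 times it in the others. Untreated M_1 and bezafibrate F_1 stood apart on the first principal component, with scores of 30.3 and 24.4 against -22.6 to 1.62 in the other 4 libraries. Endothelial markers were abundant, with the glucose transporter gene Slc2a1 at 2705 to 5752 FPKM. The 7 fibroblast markers summed to 2.59 to 4.42 FPKM per library and none passed the level filter. Sums of the 10 pericyte markers were 199 to 363 FPKM in untreated and 202 to 281 in bezafibrate libraries, with the most abundant, Rgs5, at 88.5 to 164 FPKM. In bulk libraries of sorted cells, fewer cells of a type and less RNA per cell cannot be told apart.

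The 9 genes covered 4 orders of level. Igfbp7, which binds IGFs weakly and is deposited around vessels, was far above the rest with a mean of 1362 FPKM over the 6 libraries, rank 22 of 11277 genes that passed the filter of FPKM at least 1 in 3 libraries. Igfbp3, the main IGF carrier of serum, followed at 78.6 FPKM (rank 526) and Igf1r, the IGF1 receptor, at 58.2 FPKM (rank 700). Their ranges overlapped, and Igfbp3 was above Igf1r in 5 of 6 libraries. The insulin receptor gene Insr had a mean of 17.7 FPKM and Igfbp4 8.59 FPKM, and each stood in the same order to its neighbours in all 6 libraries with no overlap of ranges.

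Irs2, Igf2r and Igfbp5 lay close together at 2.63, 2.55 and 2.23 FPKM, with overlapping ranges. Igf2r encodes the receptor that clears IGF2 and sorts lysosomal enzymes. Irs2 was above Igf2r in 3 of 6 libraries and Igf2r above Igfbp5 in 4 of 6, so the order of these 3 genes was not set beyond their spread. Irs1 was last, at 0 to 0.319 FPKM (0 to 62 reads), and was the 1 gene that did not pass the filter. Of its exon bases, 30.9% are shared with the antisense gene Gm9747, and whether the counting used strand was not given in the sources used here. This shared part was 7% for Igfbp7 (with Polr2b), 2.6% for Irs2 (with 9530052E02Rik) and 0% for the other 6 genes.

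**Figure D1:**
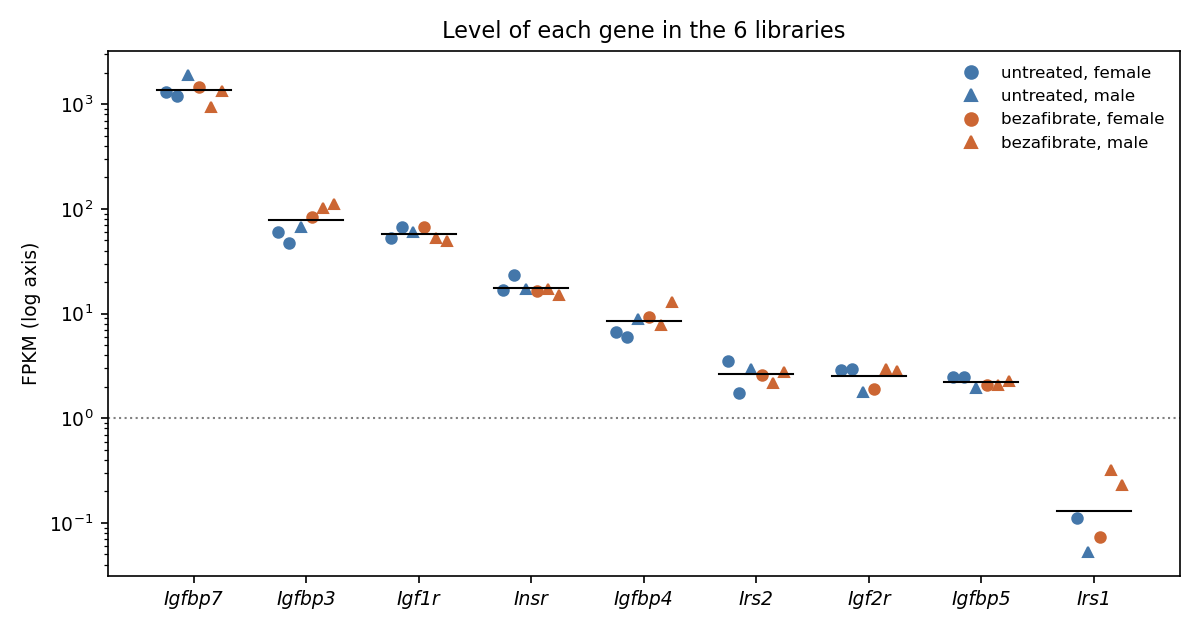
FPKM of the 9 genes in each of the 6 libraries, on a log axis, ordered by mean level (black bars); blue is untreated, orange bezafibrate, circles are female and triangles male pools, the dotted line is 1 FPKM, and the value of 0 for Irs1 in untreated F_1 is not drawn. Igfbp7 stands at 934 to 1923 FPKM and Irs1 below 0.319 FPKM, with Irs2, Igf2r and Igfbp5 overlapping between 1.76 and 3.55 FPKM.

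Igfbp3 (ENSMUSG00000020427, GRCm38 chromosome 11, 7206086 to 7213923, minus strand) had 60.2, 47.4 and 66.9 FPKM in untreated pools. In bezafibrate pools it had 84.1, 101 and 112 FPKM. The groups did not overlap, and in both sexes each bezafibrate pool was above each untreated pool. Group means were 58.2 ± 9.90 and 99.0 ± 14.02 FPKM (SD, n = 3 each), a ratio of 1.70, and the log2(FPKM + 1) difference was 0.76 (SE 0.179). These values rest on 2644 to 6733 reads per library. The difference was 0.65 with sex as a covariate. In females alone it was 0.64 and in males alone 0.66. Without the pair of libraries that stood apart it was 0.98. Only untreated female and bezafibrate male pools then remain, so treatment and sex cannot be told apart in that value.

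Igfbp3 was the 1 gene of the 8 above the filter whose groups did not overlap. Over all 11277 genes, 8.42% had groups that did not overlap, 4.29% with the higher values under bezafibrate. Since this contrast chose the set, nothing is read from that count. Limma, fitted over all genes, called 0.00887% of them (1 gene, none of the 9) at an adjusted p under 0.05, and 4.19% were under an unadjusted p of 0.05.

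Igfbp4 (ENSMUSG00000017493, chromosome 11, 99041244 to 99054392, plus strand) encodes a carrier that restrains IGFs until it is cleaved by the protease PAPP-A. It had 6.75, 5.95 and 8.85 FPKM in untreated pools and 9.26, 7.86 and 12.9 FPKM in bezafibrate pools. The groups overlapped, since untreated M_1 was above bezafibrate M_1. The means were 7.18 ± 1.501 and 9.995 ± 2.58 FPKM and the log2 difference 0.42 (SE 0.212). It was 0.24 without bezafibrate M_2, the library with the highest value.

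Igfbp5 (ENSMUSG00000026185, chromosome 1, 72857932 to 72874884, minus strand), a carrier with a basic stretch that holds it in the extracellular matrix, had 2.48, 2.48 and 1.95 FPKM in untreated and 2.06, 2.09 and 2.29 FPKM in bezafibrate libraries. Its untreated range enclosed that of the bezafibrate libraries. Its log2 difference was -0.07 (SE 0.156). It varied least of the 9 genes, with an SD of 10.01% of the mean over the 6 libraries. Igfbp7 (ENSMUSG00000036256, chromosome 5, 77349240 to 77408041, minus strand) had 1308, 1197 and 1923 FPKM in untreated pools, against 1464, 934 and 1348 FPKM in bezafibrate pools. The highest values were those of the libraries that stood apart, untreated M_1 and bezafibrate F_1. The log2 difference was -0.24 (SE 0.252) with and -0.16 (SE 0.244) without them, a fit in which treatment and sex coincide. The oligodendrocyte marker Mal was also highest in these libraries, at 902 and 806 FPKM against 330.5 to 503 FPKM in the other 4. Mal makes up most of the sum of the 10 markers of that list, 499 to 1040 FPKM in untreated and 424 to 903 FPKM in bezafibrate libraries, and none of the 10 was at 0. Across treatment all 10 had a negative difference (median -0.24, 0 called by limma or limma-voom). Mbp and Mobp were singled out after their values were seen. Mbp had 11.5 to 14.9 FPKM in untreated and 8.45 to 9.35 FPKM in bezafibrate pools. Mobp had 5.84 to 7.15 and 3.95 to 4.76 FPKM. Their groups did not overlap, while those of the other markers of the list did. Both were under an unadjusted p of 0.05 by limma, with adjusted p = 0.986 for Mbp and 0.999 for Mobp. The part of the oligodendrocyte markers in the values of Igfbp7 was not tested.

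Within the 4 binding-protein genes, the make-up can be set out as a share of their summed FPKM, which does not depend on the scaling between libraries. Igfbp7 made up 95.0%, 95.5% and 96.1% in untreated and 93.9%, 89.4% and 91.4% in bezafibrate libraries. The share of Igfbp3 was 4.37%, 3.78% and 3.35% in untreated pools and 5.39%, 9.68% and 7.58% in bezafibrate pools. Igfbp4 had 0.443% to 0.490% in untreated and 0.594% to 0.872% in bezafibrate libraries. On this scale the groups did not overlap for Igfbp3, Igfbp4 or Igfbp7, while those of Igfbp5 did, at 0.0977% to 0.198% and 0.132% to 0.200%. In FPKM the groups of Igfbp4 and Igfbp7 overlapped. The shares have a fixed sum, so that of Igfbp7 falls where that of Igfbp3 rises. The separation of Igfbp7 is therefore not a result apart from Igfbp3. As Igfbp7 makes up most of the sum, the share of Igfbp4 also depends on Igfbp7. Igfbp4 had 8.85 FPKM and 0.443% in untreated M_1, against 7.86 FPKM and 0.752% in bezafibrate M_1. How often groups separate on such a scale over all genes was not computed. The shares come from the contrast that chose the set and are a description.

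**Figure D2:**
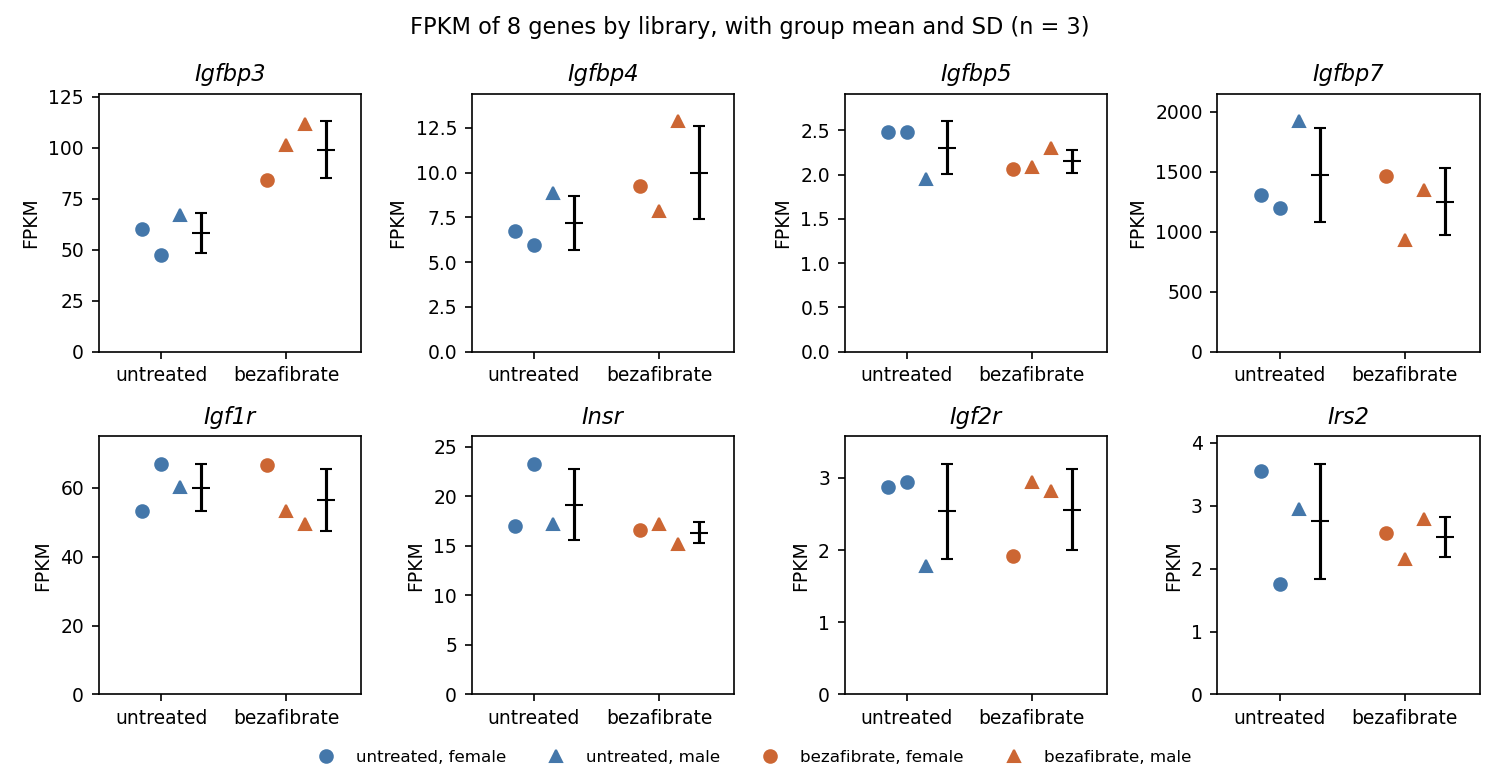
FPKM of the 8 genes above the level filter, 1 panel each with an axis from 0; circles are female and triangles male pools, and the bar beside each group is its mean with SD (n = 3). Igfbp3 is at 47.4 to 66.9 FPKM in untreated and 84.1 to 112 FPKM in bezafibrate libraries, and in the other 7 panels the groups overlap.

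Of the receptors, Igf1r (ENSMUSG00000005533, chromosome 7, 67952827 to 68233668, plus strand) had 53.1, 66.8 and 60.3 FPKM in untreated pools and 66.6, 53.3 and 49.4 FPKM in bezafibrate pools. The groups overlapped almost completely, at 60.1 ± 6.82 and 56.4 ± 9.01 FPKM, with a log2 difference of -0.10 (SE 0.163). Insr (ENSMUSG00000005534, chromosome 8, 3122061 to 3279617, minus strand) had 17.0, 23.2 and 17.2 FPKM in untreated and 16.6, 17.2 and 15.2 FPKM in bezafibrate libraries. Untreated F_2 stood above the other 5 libraries, which lay between 15.2 and 17.2 FPKM, and without it the log2 difference went from -0.21 (SE 0.159) to -0.07. The splice forms of the insulin receptor are not separated in a table of genes. Igf1r exceeded Insr by 2.87 to 4.01 times in every library, per length.

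The ratio of Igfbp3 to Igf1r, a carrier set against the receptor of its ligand, was 1.13, 0.710 and 1.11 in untreated pools. In bezafibrate pools it was 1.26, 1.90 and 2.27. The ratio was thus above 1 in all libraries but untreated F_2, and the groups did not overlap. As the difference of Igfbp3 chose the set, this separation is a description and nothing is read from it.

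Igf2r (ENSMUSG00000023830, chromosome 17, 12682406 to 12769664, minus strand) had 2.88, 2.95 and 1.78 FPKM in untreated pools and 1.92, 2.95 and 2.82 FPKM in bezafibrate pools. The 2 low values were from untreated M_1 and bezafibrate F_1, and the other 4 lay within 2.82 to 2.95 FPKM. The log2 difference was 0.02 (SE 0.209) with and -0.01 (SE 0.178) without these libraries, a fit in which treatment and sex coincide. Igf2r, with 308 to 583 reads per library, thus ran opposite to Igfbp7 across the libraries that stood apart.

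Irs2 (ENSMUSG00000038894, chromosome 8, 10984681 to 11008458, minus strand), the docking protein whose gene is switched on by FoxO factors in liver when insulin is low, had 3.55, 1.76 and 2.95 FPKM in untreated and 2.57, 2.16 and 2.79 FPKM in bezafibrate libraries. The highest and the lowest value were both untreated. The means were 2.75 ± 0.911 and 2.503 ± 0.319 FPKM and the log2 difference -0.07 (SE 0.216). Irs1 (ENSMUSG00000055980, chromosome 1, 82233101 to 82291416, minus strand) had 0, 18 and 9 reads in untreated pools and 12, 62 and 40 reads in bezafibrate pools. The bezafibrate male pools had the most reads, and the groups overlapped. Irs2 exceeded Irs1 in every library.

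**Figure D3:**
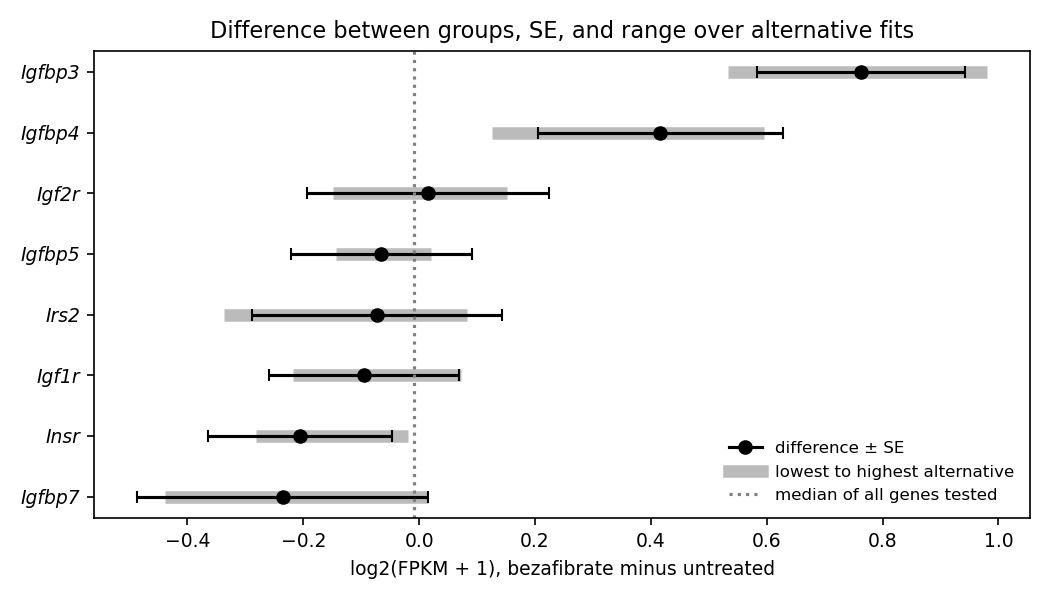
Differences in log2(FPKM + 1), bezafibrate minus untreated, for the 8 genes above the level filter; points and whiskers are the difference and its SE (n = 3 per group), grey bars run from the lowest to the highest alternative fit, and the dotted line is the median of all 11277 genes. Igfbp3 lies between 0.53 and 0.98 and Igfbp4 between 0.13 and 0.60 over the alternatives, and the bars of 5 of the other 6 genes cross 0. The highest value of Igfbp3 and of Igfbp4 is from the fit without untreated M_1 and bezafibrate F_1, in which treatment and sex coincide.

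The sexes were compared as a contrast that did not choose the genes. With treatment as a covariate, limma called none of the 8 genes at an adjusted p under 0.05 and none at an unadjusted p under 0.05. Over all genes it called 0.0266% (Xist and the Y-linked Ddx3y and Eif2s3y), and 2.94% were under an unadjusted p of 0.05. The difference with the smallest unadjusted p was that of Igfbp3, higher in males by 0.33 (SE 0.166, limma adjusted p = 0.9999). Igfbp4 had 0.27 (SE 0.221), and the differences of the other 6 genes were between -0.18 and 0.12. Without the covariate the difference of Igfbp3 was 0.55, with unadjusted means of 93.3 FPKM in male and 63.9 FPKM in female pools. Bezafibrate pools lay on opposite sides of the untreated pools in females and males for 3 of the 8 genes (Igfbp5, Igfbp7 and Igf2r) and for 41.6% of all genes tested. Males made up 2 of 3 bezafibrate pools and 1 of 3 untreated pools.

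The other genes of the pathway were counted by role. Of 120 genes 94 passed the filter, and limma called 0 of them in the treatment contrast, as did limma-voom on recovered reads. The lists had 41 positive and 53 negative differences with a median of -0.05, beside -0.01 over all genes tested. Of all genes tested, 48.2% had a positive difference. At an unadjusted p under 0.05 by limma there were 0 higher and 6 lower genes, beside 4.19% of all genes in either direction. Changes were therefore not detected for single genes of the pathway with 3 pools per group. Values are given as measured. Over all genes tested, 8.42% had groups that did not overlap, so nothing is read from such separations of the single pathway genes named below.

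Ligand transcripts were near 0. Igf1, Igf2, Ins1 and Ins2 did not pass the filter, Ins1 was listed at 0 in each library, and Igf2, the highest, had 0.0608 to 0.273 FPKM. Of the other binding proteins 3 of 5 passed, with 2 positive and 1 negative differences. Igfbp2, an IGF carrier that prevails in choroid plexus and cerebrospinal fluid, had 10.6, 9.82 and 10.1 FPKM in untreated and 7.70, 10.3 and 19.6 FPKM in bezafibrate libraries. Its value was highest in bezafibrate M_2, the library with the most Ttr, the transthyretin gene of the choroid plexus. Igfbp1 stood at 0.457 to 1.26 FPKM, with a log2 difference of 0.29, and Igfbpl1 at 0.275 to 1.77 FPKM, with -0.21.

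Ttr had 389, 349 and 375 FPKM in untreated and 397, 540 and 919 FPKM in bezafibrate pools. Igfbp3 took the same order within the bezafibrate group and not within the untreated group, and Igfbp4 took it in neither. The 10 choroid plexus and ependymal markers summed to 411 to 467 FPKM in untreated and 459 to 1034 FPKM in bezafibrate libraries, and all 9 that passed the filter had a positive difference (median 0.24, 0 called by limma or limma-voom, 1 at an unadjusted p under 0.05). Among the defining markers none was at 0. Their part in the values of Igfbp3 and Igfbp4 was not tested. Negative differences prevailed in the lists of endothelium (9 of 10, median -0.15), pericytes (8 of 10, -0.24) and astrocytes (8 of 9, -0.23), with 0 called. Arterial and venous endothelial markers had medians of 0.06 (6 of 11 positive) and 0.02 (5 of 10 positive). The most abundant of them, Gkn3 and Tmsb10, had 110 to 231 and 107 to 141 FPKM. The venous marker Ackr1, singled out after its values were seen, had 1.88, 1.32 and 1.76 FPKM in untreated and 3.20, 4.95 and 3.14 FPKM in bezafibrate pools, with no overlap (limma adjusted p = 0.962).

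Secreted proteins related to the IGF-binding proteins had 1 positive and 4 negative differences among 5 measured genes, with a median of -0.34. Cyr61, a matricellular protein whose gene is an immediate early gene, had 1680.0, 1713 and 1380.0 FPKM in untreated and 1213, 1071 and 977 FPKM in bezafibrate libraries. Nov, another matricellular gene of this family, had 20.9 to 33.4 and 15.4 to 20.2 FPKM. In both genes the groups did not overlap, and both stood below an unadjusted p of 0.05 without passing the adjustment by limma (adjusted p = 0.999 for each). Proteases and their inhibitors were mostly below the filter, with 2 of 8 measured. Stc1, a stanniocalcin that inhibits the IGFBP-cleaving PAPP-A proteases in other settings, had 9.78 ± 5.14 and 5.52 ± 1.95 FPKM, and the protease gene Adam9 12.4 ± 0.897 and 11.6 ± 1.90 FPKM.

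Among other receptors and partners, 4 of 7 measured genes had a positive difference (median 0.07). Tmem219, which encodes a cell-surface receptor described for IGFBP3, had 3.76 ± 0.360 and 4.36 ± 0.224 FPKM, and its groups did not overlap (limma adjusted p = 0.999). Itgb1, the most abundant of this list, had 211 ± 59.8 and 169 ± 46.1 FPKM. Adaptors had 2 positive and 6 negative differences (median -0.15). Sos1, the exchange factor that loads RAS with GTP, had 22.3 ± 5.58 and 14.99 ± 0.189 FPKM, a log2 difference of -0.52 (limma adjusted p = 0.999), with untreated F_1 at 28.7 FPKM. Sh2b1, an adaptor of the insulin receptor, had 10.3 ± 2.11 and 12.9 ± 0.948 FPKM, and Crk 64.7 ± 12.9 and 57.6 ± 7.53 FPKM.

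PI3K and AKT genes had 2 positive and 7 negative differences (median -0.06), with the regulatory subunit gene Pik3r2 at 0.22. Akt1, the most abundant AKT gene here, had 60.9 ± 11.6 and 59.1 ± 12.7 FPKM. All 15 genes that restrain the receptors or PI3K were measured, 8 positive and 7 negative (median 0.01). The largest differences among them were -0.30 for the AKT phosphatase gene Phlpp1 and -0.29 for Socs3, an inhibitor of cytokine and insulin signalling. TSC and mTOR genes were 9 positive and 5 negative (median 0.02), with Rheb, which activates mTOR, at 16.3 ± 0.475 and 16.0 ± 2.20 FPKM and the translational repressor genes Eif4ebp1 and Eif4ebp2 at 0.28 and 0.21. RAS and ERK genes were 7 positive and 3 negative (median 0.02), with Mapk3 at 129 ± 6.55 and 139 ± 10.8 FPKM, and Ptpn11, a phosphatase that promotes RAS signalling, at -0.18.

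FoxO factors and GSK3 had 1 positive and 5 negative differences (median -0.14). Foxo4, the most abundant, had 23.2 ± 0.520 and 20.5 ± 4.85 FPKM, and Foxo3 and Foxo6 had differences of -0.25 and -0.23. Genes known as FoxO targets had 5 positive and 10 negative differences (median -0.09). Pdk4, a kinase that restrains pyruvate oxidation and is also a PPAR target, had 12.8, 14.3 and 21.5 FPKM in untreated and 12.3, 7.34 and 10.3 FPKM in bezafibrate libraries. Ccng2, an atypical cyclin, had 24.4, 16.5 and 21.6 against 14.3, 12.4 and 14.5 FPKM. In both the groups did not overlap, and limma gave an adjusted p = 0.999 for each. The most abundant gene of the list, Txnip, had 330.5 ± 57.0 and 305 ± 41.1 FPKM.

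**Figure D4:**
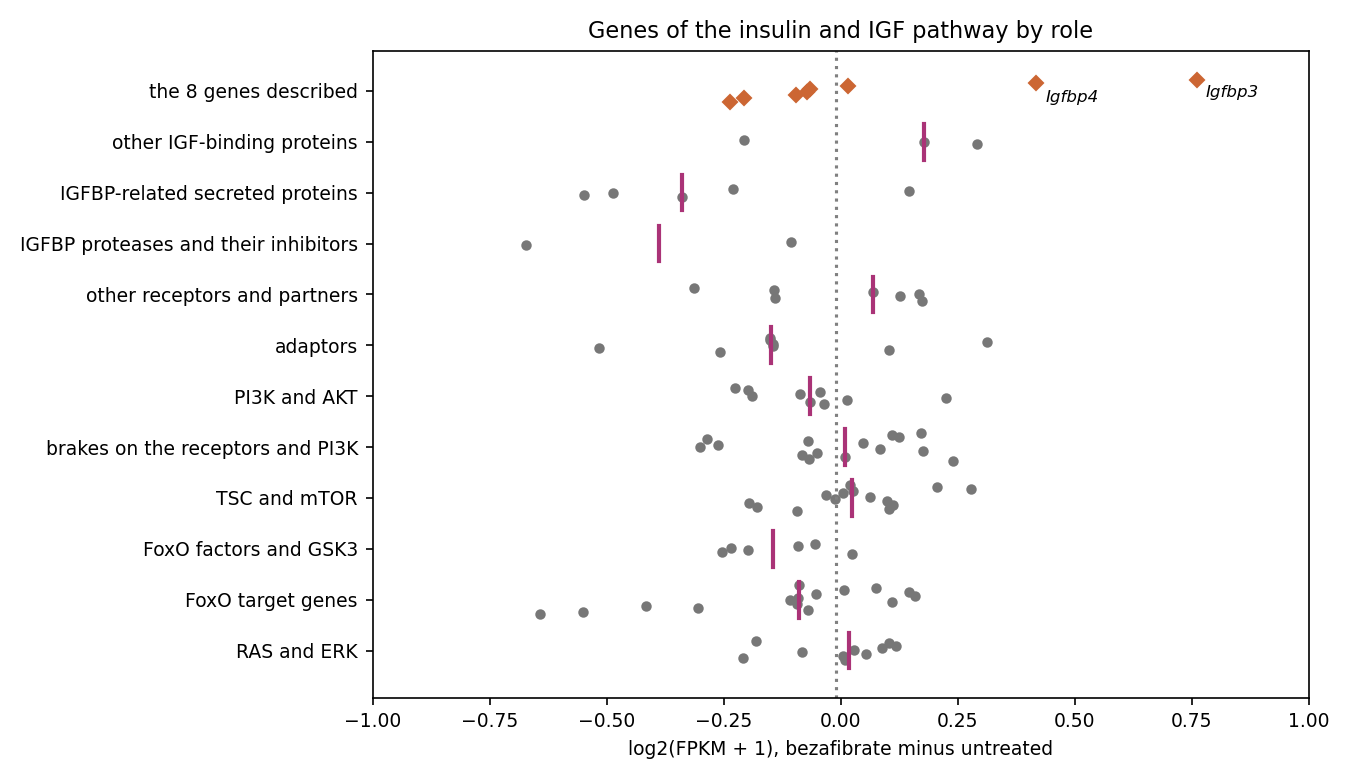
Differences in log2(FPKM + 1), bezafibrate minus untreated, of the 94 pathway genes above the level filter by role (grey points, with the median of each list in purple) and of the 8 genes described (orange diamonds); the dotted line is the median of all genes tested. Igfbp3 at 0.76 lies to the right of each grey point, Igfbp4 at 0.42 as well, and the lowest points are Stc1 at -0.67 and Pdk4 at -0.64. The difference of Igfbp3 in this contrast chose the set, so its place beside the grey points is a description.

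The pattern of Igfbp3 over the 6 libraries was compared with that of the other 10065 protein-coding genes above the filter by Pearson's r of log2(FPKM + 1). The 6 points of each gene share libraries and scaling, and the group difference is part of each correlation, so that values are given with no p. The 5 highest were Gna12 (r = 0.97, Spearman's rho = 1), which encodes a G protein alpha subunit, Scd1 (0.97, 1), the stearoyl-CoA desaturase that makes monounsaturated fatty acids, Knop1 (0.97, 0.89), Armcx4 (0.97, 0.94) and Prag1 (0.97, 1). Scd1 had 4.08, 3.23 and 5.02 FPKM in untreated and 6.28, 6.73 and 6.81 FPKM in bezafibrate pools. After each group mean was removed, r of these 5 genes with Igfbp3 was 0.83 to 0.87. In all, 76 genes had r of at least 0.9 and 11 had rho of 1.

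The 2 lowest were Wars2 (r = -0.99), a mitochondrial tryptophanyl-tRNA synthetase, and Skil (-0.99), a repressor of SMAD proteins in TGF-beta signalling. Both had rho of -1. Skil had 24.1, 28.9 and 22.4 FPKM in untreated and 20.5, 16.6 and 14.8 FPKM in bezafibrate libraries, and its r within groups was -0.98. Among the other genes of the axis, r with Igfbp3 was 0.82 for Igfbp4 (rank 217 of 10065), -0.80 for Insr (rank 9770), -0.60 for Igf1r, -0.45 for Igfbp5, -0.21 for Igfbp7, -0.01 for Igf2r and 0.14 for Irs2. After each group mean was removed, r was 0.69 for Igfbp4, 0.64 for Irs2, -0.80 for Insr and -0.80 for Igf1r. The order was not kept library by library, since from bezafibrate F_1 to M_1 Igfbp3 was higher while Igfbp4 was lower and Insr higher.

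**Figure D5:**
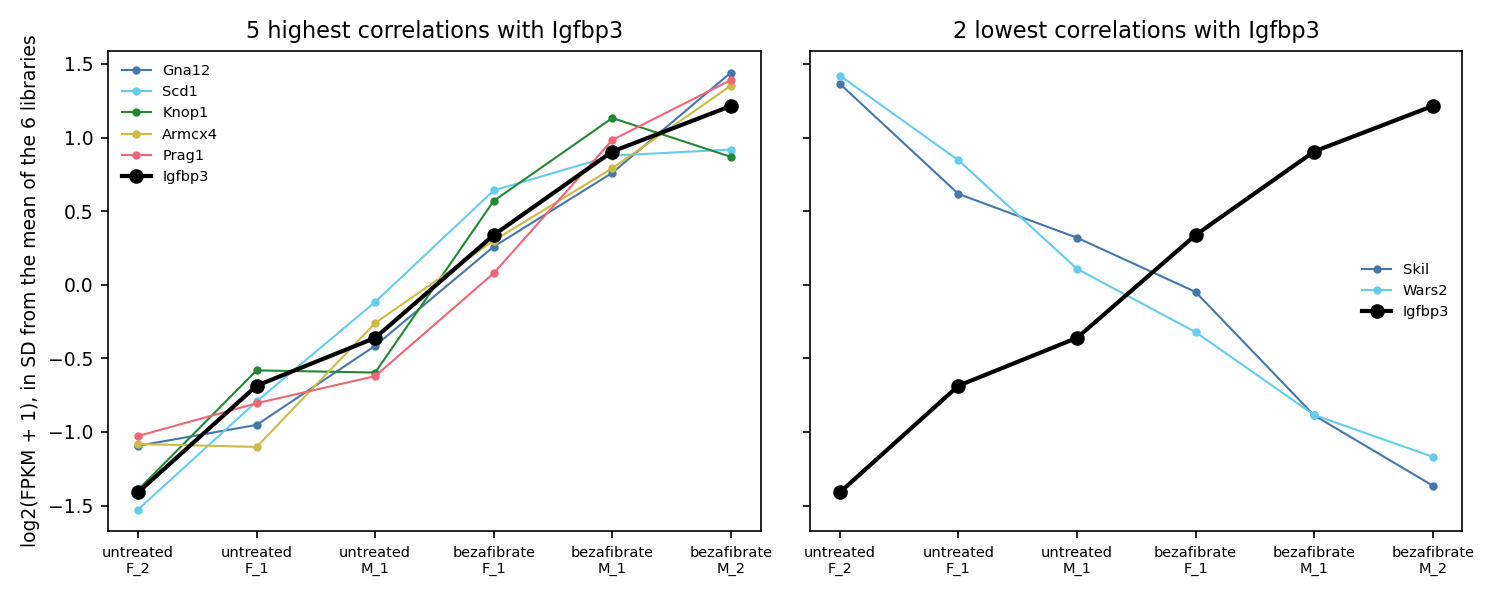
Profiles over the 6 libraries of Igfbp3 (black) with the 5 genes of highest (left) and the 2 genes of lowest (right) Pearson's r with it; the y axis is log2(FPKM + 1) in SD from the mean of the 6 libraries, the libraries stand in the order of Igfbp3, and lines only join the points. Igfbp3 runs from 47.4 FPKM in untreated F_2 to 112 FPKM in bezafibrate M_2, Gna12 follows the same order, and Skil runs the other way.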

How the data were processed

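The authors' deposited table gives FPKM per gene for 6 libraries. Per the labels' protocols, cDNA was made with SMART-Seq HT, and Salmon mapped the reads after duplicates were removed. The submitters' processing notes name GRCm38. Salmon's version, the annotation and any use of strand were not given in the sources used here. For untreated M_1 the column and the title differ in number, and that sample's description placed it. FPKM times length fell on whole reads in 100% of values (tolerance 0.01 reads), which gave the reads quoted.

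Genes that reached an FPKM of 1 in 3 or more libraries were fitted as log2(FPKM + 1) with limma 3.58.1 in R 4.3.3 (trend, two-sided, Benjamini-Hochberg over all 11277 genes), without covariates for treatment and with treatment as a covariate for sex. The fits were run on simulated counts, drawn independently for each gene, with known changes larger than that of Igfbp3. These counts held no shared difference such as that of the libraries that stood apart. They check the code and do not show how the fits perform on these data. On this scale the change of low genes is understated. Replicates are pools of separate animals, and p-values measure the spread between pools. A shared library name was not taken to pair the groups. Exon overlaps used GENCODE release M21.

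The members, lists and rules were chosen with earlier results of these data known. Named genes were the most abundant of each pathway list and its 2 with the largest differences, the most abundant of cell type lists, and the 5 most and 3 least like Igfbp3 by r. Some genes that this rule names are not reported here.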

Additional observations from a re-analysis of the deposited data

Results flagged for a closer look

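In 3 of the genes, bezafibrate pools lay on opposite sides of the untreated pools in the 2 sexes. Igf2r was lower than both untreated pools in bezafibrate females and higher than the untreated pool in bezafibrate males, with a product term of treatment and sex of 0.90 (SE 0.312, limma adjusted p = 0.174). Igfbp7 ran the other way, at -1.003 (SE 0.418, adjusted p = 0.237), and Igfbp5 had 0.29 (SE 0.322, adjusted p = 0.645). Of all genes, 41.6% lay on opposite sides in this way. In the same fit 75 of 11277 genes were called and 2398 had an unadjusted p under 0.05, against 1 of the 8 genes here, Igf2r (unadjusted p = 0.0258), and none of the 8 was called by limma. The fit, chosen after the data were seen, leaves 2 residual degrees of freedom. Untreated M_1 is the only untreated male pool and bezafibrate F_1 the only bezafibrate female pool, and these are the libraries that stood apart, so that sex and library cannot be told apart here.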

How the results depend on the processing

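The treatment differences of the 8 genes kept their sign in 102 of 117 alternatives, and those of Igfbp3, Igfbp4 and Insr in all 15 each. Igfbp3 ran from 0.62 to 0.87 with a library left out and was 0.53 (SE 0.346) with a replicate block, and Insr was -0.02 with it. Same-named libraries deviated apart (r = -0.36 for F_1 and -0.30 for M_1), so the names were not used as pairs. In TPM the median over all genes was 0.10, beside -0.01 in FPKM, and Igf1r, Igfbp5 and Irs2 then turned to 0.02 each, while Igfbp7 was 0.02 under quantile scaling. The number of genes called over the whole table was 1, 0 by limma-voom and 0 with the replicate block. It was 0 without both libraries that stood apart, where untreated pools are all female and bezafibrate pools all male. With 1 library left out it was 0 to 3 (3 without bezafibrate F_1, 0 without bezafibrate M_1 or M_2). None of the pathway genes was called in these fits. No sex difference of the 8 genes was called in 72 alternatives. With a library left out, those whose sign changed ran from -0.37 to 0.018 (Igf1r), -0.49 to 0.41 (Igf2r), -0.23 to 0.059 (Igfbp5), -0.38 to 0.62 (Igfbp7) and -0.11 to 0.20 (Irs2). Of the 5 genes most like Igfbp3, 3 were among the highest by Spearman's rho and 0 by r within groups, and all 8 neighbouring levels kept their order in TPM. With 11 genes tied at rho of 1 and the ties ordered by r, the count by rho is not a separate check. The causes were not tested. With 3 pools per group, a two-sided permutation test of a single gene cannot go below 0.1.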
